A study of Mus musculus with 4 samples.

Results

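The unfolded protein response and the amino acid stress response were followed through 32 genes in mouse bone marrow-derived macrophages. The genes were taken as a list by symbol, each read from the probeset with the highest mean signal among those that carry exactly 1 symbol. All 32 were found among the 19938 genes so named on the array. They comprised 15 folding factors of the endoplasmic reticulum (ER), 5 genes of degradation and protein translocation, 4 genes of the stress sensors and Xbp1, and 8 stress genes of the Atf4 type. The rule that picks them by symbol uses no measured value, but the list was drawn up with earlier results of these data known.

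The ER is where secreted and membrane proteins are folded, and its chaperones and disulfide isomerases are induced when unfolded proteins accumulate. Ern1, Atf6 and Eif2ak3 are the sensors of that state. Ern1 splices Xbp1 mRNA, Atf6 is released by proteolysis, and Eif2ak3 (PERK) phosphorylates eIF2, which slows translation and raises translation of Atf4. Atf4 is shared with the response to amino acid shortage and drives genes such as Asns, Trib3 and Ddit3. In macrophages these pathways bear on the secretion of proteins and on survival under stress.

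Expression was measured on 4 arrays, 1 for each of 4 groups. Wild-type cells were from BALB/c mice, and Stat6-deficient cells were from mice labelled 4get/Stat6-/-, which lack the transcription factor that IL-4 activates and carry a reporter allele of the Il4 gene. All cells were grown from bone marrow for 7 days with 10% supernatant of L929 fibroblasts as a source of M-CSF, replated, kept for 24 h with or without IL-4 in the medium, and finally sorted on F4/80, a macrophage surface protein. The IL-4 dose is 10 µg/mL in the sample labels and 10 mg/mL in the series text, and the labels do not settle the unit. The labels give the 4get allele for the Stat6-deficient mice alone, so its part and that of other strain differences cannot be told apart from the loss of Stat6. With 1 array per group no spread could be estimated and no test was made, so each value is only as precise as 1 array makes it.

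Values are log2 signals, and differences are differences of log2 signals. A gene is said to have risen or fallen, or to be higher or lower past the 2-fold rule, where the difference was at least 1 and the higher array reached 2.52, a floor set at the median signal of single-symbol probesets. Of the 32 genes, 30 were at or above the floor on all 4 arrays. Trib3 was under it in both Stat6-deficient cultures, and Chac1 was under it in both cultures in medium. In RNA pooled from the sorted cells of a culture, a change in RNA per cell and a change in the share of cells that express a gene cannot be told apart.

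The arrays followed their labels. Stat6 had a signal of 7.34 and 6.68 in wild type and 4.54 and 4.25 in Stat6-deficient cells, and Arg1, a marker of the IL-4 response, was at 8.60 in wild type with IL-4 and at 1.69 or less on the other arrays. All 9 macrophage markers measured were above the floor on every array. The summed level of those 9 was 13.41 in wild type in medium and 12.83 with IL-4, against 13.26 and 13.27 in Stat6-deficient cells, and its part in the wild-type differences was not tested. Plasma cells are rich in ER folding factors, and of their 7 markers Jchain, Mzb1 and Tnfrsf17 were at 1.96 or less, while Sdc1, Prdm1, Irf4 and Derl3 reached the floor. Together the 7 had a summed level of 6.92, 6.81, 6.44 and 6.49 in wild type in medium and with IL-4 and in Stat6-deficient cells in medium and with IL-4. Irf4 rose with IL-4 in wild type, from 2.75 to 4.83, and the part of such cells in the results was not tested. Of 6 fibroblast markers 4, and of 8 markers of neutrophils and precursors 2, reached the floor on at least 1 array. So did 1 marker each of T cells, B cells, eosinophils, dendritic cells and NK cells. All markers of these cell types were at 3.41 or less.

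Promoter sequence was not used to choose the genes, but they were listed as known genes of these responses. Their share of windows with a known element of the response is therefore no independent support for the list. Such an element, found in many folding factors and in no Atf4-type gene, is shown here. RefSeq promoter windows (GRCm38.p6, 250 bases before to 50 after the start, 300 in all) were matched for 28 of the 32 genes, without Hyou1, Manf, Hspa13 and Atf6. The ER stress element, CCAAT and CCACG with 9 bases between them, is the site bound by NF-Y together with Atf6. On either strand it was found in 8 of these 28 windows, against 0.119% of 32851 windows of the same length. It lay in 7 of 12 windows of folding factors, in 1 of 5 of the degradation and translocation genes, in 0 of 3 of the sensors and Xbp1, and in 0 of 8 of the Atf4-type genes. Its boxes taken singly were less selective. CCACG was in 21 of 28 windows and in 32.8% of all, and CCAAT in 22 of 28 and in 37.4% of all. Each box was in 5 of 8 windows of Atf4-type genes. The matches to the full element are given from the 5′ end of the motif with its fixed bases in capitals.

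Hspa5: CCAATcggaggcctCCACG
Hsp90b1, nearer the start: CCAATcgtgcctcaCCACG
Hsp90b1, farther from it: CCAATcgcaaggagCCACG
Creld2: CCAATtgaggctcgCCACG
Calr: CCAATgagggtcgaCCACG
Canx: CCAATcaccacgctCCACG
Pdia6: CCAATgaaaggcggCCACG
Dnajc3: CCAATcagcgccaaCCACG
Syvn1: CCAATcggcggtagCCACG

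These matches lie on GRCm38.p6 at chr2:34772025-34772043 (Hspa5), chr10:86705533-86705551 and chr10:86705638-86705656 (Hsp90b1), chr15:88819520-88819538 (Creld2), chr8:84847075-84847093 (Calr), chr11:50325800-50325818 (Canx), chr12:17266491-17266509 (Pdia6), chr14:118937827-118937845 (Dnajc3) and chr19:6046532-6046550 (Syvn1). All are upstream of the annotated start. A related shorter form, ATTGG and CCACG with 1 base between them, was searched for after the promoters had been read. It was in the windows of Herpud1 and Dnajb11 and in 0.0365% of all windows.

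The amino acid response element in the form TGATGNAAT was in 0 of the 28 windows and in 0.965% of all, and the unfolded protein response element TGACGTGG was in 0 of 28 and in 0.676% of all. A shorter form of the amino acid response element, TGATGNAA, added after the promoters had been read, was in 4 of 8 windows of Atf4-type genes (Atf3, Asns, Chac1 and Trib3), in Herpud1, in 0 of 12 folding factors and in 3.97% of all windows. A spaced pair of the kind STAT6 binds, TTC and GAA with 4 bases between them, was in the window of Chac1 alone among the 28, against 6.95% of all. Leaving aside single CCAAT and CCACG boxes, the matches to these elements do not overlap one another in the 28 windows. The exception is the STAT6 pair, which reads the same on both strands. A match describes letters in a window and not a bound site.

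**Figure D1:**
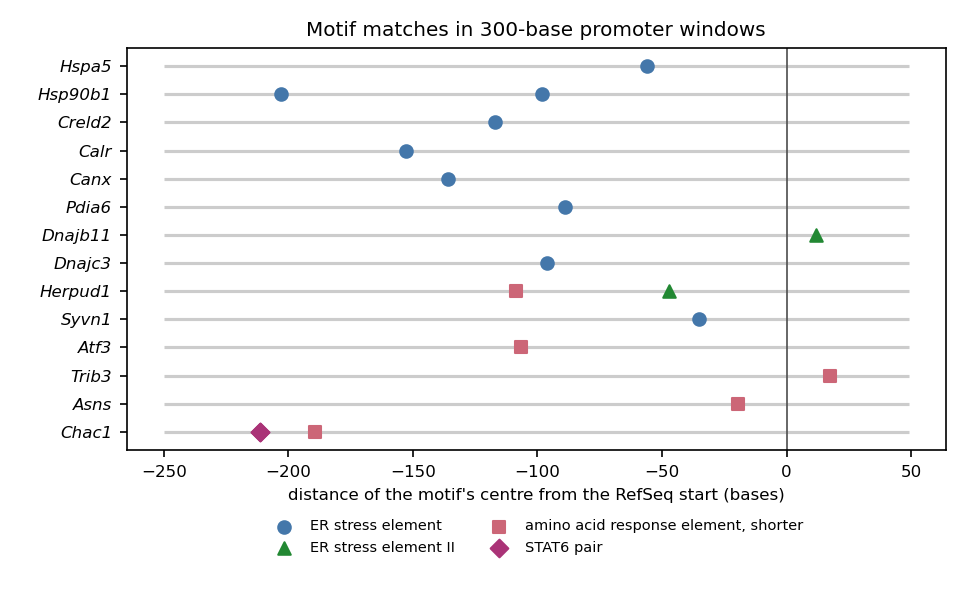
Position of motif matches in the promoter windows of the 14 genes with a match, as distance in bases from the RefSeq start to the centre of the motif; the grey line is the window of 300 bases and each symbol is 1 match on either strand. The circles (ER stress element) lie upstream of the start in folding factors and Syvn1, and the squares (shorter amino acid response element) lie in Atf4-type genes and Herpud1.

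For Hspa5, Creld2, Sdf2l1 and Asns, the 250 bases before the start are given on the strand of the gene, from RefSeq GRCm38.p6. Creld2 and Sdf2l1 rose with IL-4 in wild type, while Hspa5 and Asns passed the rule in no comparison. Hspa5 (chr2:34771840-34772089, plus strand) and Creld2 (chr15:88819396-88819645, plus strand) carry the ER stress element, marked in capitals, which in Creld2 lies on the other strand and so reads CGTGG, 9 bases, ATTGG. Sdf2l1 (chr16:17132384-17132633, minus strand) has no match to the full element. Its separate CCAAT and CCACG boxes are in capitals on whichever strand they lie, as ATTGG and CGTGG where they lie on the other. In Asns (chr6:7693210-7693459, minus strand) the fixed bases of TGATGNAA are in capitals.

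Hspa5: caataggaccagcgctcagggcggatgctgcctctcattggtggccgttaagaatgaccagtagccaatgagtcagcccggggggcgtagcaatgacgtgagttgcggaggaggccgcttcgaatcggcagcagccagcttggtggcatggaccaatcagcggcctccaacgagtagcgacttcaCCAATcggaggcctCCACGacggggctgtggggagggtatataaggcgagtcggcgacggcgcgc
Creld2: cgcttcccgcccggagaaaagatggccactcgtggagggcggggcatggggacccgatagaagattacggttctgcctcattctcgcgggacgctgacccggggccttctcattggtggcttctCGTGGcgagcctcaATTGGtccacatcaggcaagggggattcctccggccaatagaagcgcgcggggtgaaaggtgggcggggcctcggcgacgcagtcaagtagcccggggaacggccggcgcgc
Sdf2l1: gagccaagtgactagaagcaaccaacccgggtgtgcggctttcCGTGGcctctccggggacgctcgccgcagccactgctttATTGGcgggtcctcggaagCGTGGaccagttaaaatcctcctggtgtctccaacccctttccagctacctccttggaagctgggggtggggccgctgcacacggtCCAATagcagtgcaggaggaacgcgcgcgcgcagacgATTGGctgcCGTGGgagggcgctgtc
Asns: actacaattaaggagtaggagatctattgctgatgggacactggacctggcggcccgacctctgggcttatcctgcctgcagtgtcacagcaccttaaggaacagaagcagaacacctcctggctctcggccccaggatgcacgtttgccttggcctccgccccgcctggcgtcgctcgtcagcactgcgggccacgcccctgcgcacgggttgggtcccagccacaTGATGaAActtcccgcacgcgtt

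IL-4 was compared with medium in wild-type macrophages first. Of the 32 genes, Sdf2l1, Sec61b and Creld2 rose and Hspa13 fell. Over all genes, 2.96% rose and 6.78% fell. The median difference of the 15 folding factors was 0.30, with 12 of 15 above 0, whereas the median of all 10282 genes that could pass the rule was -0.11, with 41.1% above 0.

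Sdf2l1, a partner of the co-chaperone Dnajb11, had wild-type signals of 5.93 in medium and 7.70 with IL-4, and Stat6-deficient signals of 5.83 in medium and 6.36 with IL-4. The wild-type array with IL-4 was the highest, followed by the Stat6-deficient array with IL-4. The rise in wild type was 3.42-fold. Creld2, a stress-induced protein of the ER lumen, had 5.72, 6.74, 5.56 and 5.51 in the same order of arrays, and rose 2.03-fold in wild type. Hyou1, the nucleotide exchange factor of the ER chaperone Hspa5, had 6.56, 7.45, 6.62 and 6.36, again with the wild-type array with IL-4 as the single high one. Its difference of 0.89 was just short of the rule in wild type.

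Further isomerases, a secreted factor and a lectin chaperone had the same array as the highest. Pdia4 had 6.91, 7.73, 6.84 and 6.79, a wild-type difference of 0.82, and Pdia6 had 8.30, 8.89, 8.21 and 8.14, a difference of 0.59. Manf, a small protein that is retained in the ER and released under stress, had 5.02, 5.66, 4.91 and 4.99, a difference of 0.64. Calr, a lectin chaperone that holds calcium, had 8.999, 9.48, 8.74 and 8.72, a difference of 0.48. In each of these 4 genes that array was wild type with IL-4, and none passed the rule in wild type.

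The central chaperones had small differences. With the intensity trend removed, those of Hspa5, Hsp90b1 and Pdia3 were larger, and that of Canx went from -0.12 to 0.09. Hspa5 (BiP), the main Hsp70 of the ER and the usual marker of the response, had 9.27, 9.31, 9.22 and 9.10, a wild-type difference of 0.04. Hsp90b1 (Grp94) had 9.31, 9.52, 9.18 and 9.01, a difference of 0.20. Pdia3, the isomerase that works with the lectin chaperones, had 9.45, 9.59, 9.35 and 9.25, a difference of 0.14, and Canx, the membrane-bound lectin chaperone, had 9.30, 9.18, 9.31 and 9.12, a difference of -0.12. These differences are within the 2-fold rule, and the design gives no interval for them.

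The co-chaperones of the J-domain family did not share 1 direction. Dnajb11 had 6.88, 7.09, 6.64 and 6.30, a wild-type difference of 0.21. Dnajc3, which also inhibits Eif2ak3, had 7.28, 7.58, 7.66 and 7.15, a difference of 0.30. Dnajb9, which binds Ern1 and is a known target of Xbp1, had 5.92, 5.39, 6.34 and 6.18, a difference of -0.53, with the wild-type array with IL-4 the lowest. Hspa13, an Hsp70-like protein of microsomes, had 5.93, 4.37, 4.91 and 4.88 and fell 2.94-fold in wild type. Its wild-type array in medium stood apart from the other 3 on the high side, and its wild-type array with IL-4 was the lowest.

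**Figure D2:**
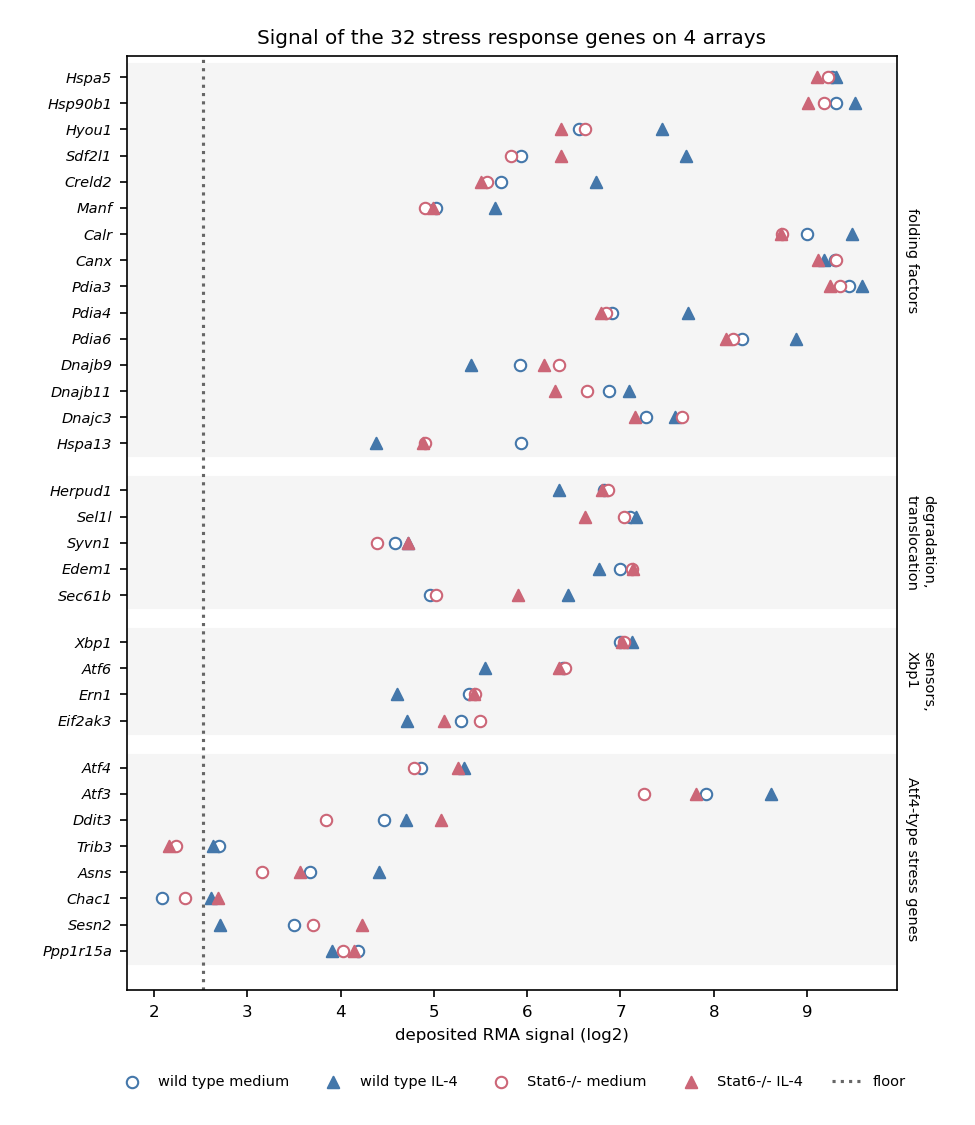
Deposited log2 signal (horizontal axis) of the 32 genes on each of the 4 arrays; open circles are cultures in medium, filled triangles cultures with IL-4, blue is wild type and red Stat6-deficient, and the dotted line is the floor of 2.52. For Hyou1, Sdf2l1, Creld2 and Pdia4 the blue triangle lies to the right of the other 3 symbols, while the symbols of Hspa5, Canx and Xbp1 lie close together.

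Among the genes of degradation and translocation, Sec61b rose. Sec61b is a subunit of the channel through which proteins enter the ER, and its signals were 4.96, 6.43, 5.02 and 5.90 in wild type in medium and with IL-4 and Stat6-deficient cells in medium and with IL-4. The rise in wild type was 2.79-fold, and both arrays with IL-4 were above both arrays in medium. Its other probesets gave wild-type differences of 1.54 and 1.40, close to the 1.48 of the probeset used. Sel1l, the adaptor of the ubiquitin ligase complex, had 7.10, 7.17, 7.04 and 6.62, and Syvn1 (Hrd1), the ligase itself, had 4.59, 4.72, 4.39 and 4.72. Herpud1, which recruits that complex, had 6.82, 6.34, 6.87 and 6.81, and Edem1, which selects glycoproteins for degradation, had 7.00, 6.77, 7.13 and 7.13. Those 4 genes had wild-type differences between -0.48 and 0.14.

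The sensors were lower rather than higher in wild type with IL-4, short of the rule. Atf6 had 6.39, 5.55, 6.40 and 6.34, a wild-type difference of -0.84. Ern1 had 5.37, 4.61, 5.44 and 5.43, a difference of -0.77, and Eif2ak3 had 5.29, 4.72, 5.50 and 5.11, a difference of -0.57. For all 3 sensors the wild-type array with IL-4 was the lowest. Xbp1 had 7.00, 7.12, 7.04 and 7.02, a difference of 0.12, and its signal does not separate the spliced from the unspliced mRNA. The median of the 4 genes was -0.67.

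None of the 8 Atf4-type stress genes passed the rule in wild type. Their median difference was 0.35, near that of the folding factors, with 5 of 8 above 0. Asns, which makes asparagine, had 3.67, 4.41, 3.15 and 3.57, a wild-type difference of 0.74, and the transcription factor Atf3 had 7.92, 8.62, 7.25 and 7.81, a difference of 0.70. Sesn2, a stress-induced inhibitor of mTORC1, had 3.50, 2.71, 3.70 and 4.22, a difference of -0.79. Atf3 and Asns were highest and Sesn2 was lowest in wild type with IL-4. Chac1, which degrades glutathione, went from 2.08, under the floor, to 2.61.

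The 2 wild-type arrays differ from each other in a way that depends on signal, and this touches both counts and medians. Genes with a mean signal from 4 to 8 had median differences of -0.19 in wild type, and those at 8 or above had -0.18, against -0.01 for those between the floor and 4. Stat6-deficient against wild-type cells in medium had -0.17 from 4 to 6, -0.16 from 6 to 8 and -0.14 at 8 or above. With IL-4 the genotypes differed by -0.01, -0.05 and 0.06. The 75th percentile of signal was 4.41 in wild type in medium. It was 4.25 in wild type with IL-4, and 4.26 and 4.23 in Stat6-deficient cells in medium and with IL-4. The comparisons with the larger offsets thus share the wild-type array in medium. Of the 32 stress genes, 22 lay between 4 and 8 and 6 at 8 or above. Over all genes, 304 rose and 697 fell with IL-4 in wild type. After quantile normalization applied again 403 rose and 488 fell, with the median of all genes moving from -0.11 to 0.02. With the trend of the difference on signal removed, 418 rose and 479 fell, the median of the folding factors was 0.49, and Hyou1 at 1.10 and Pdia4 at 1.01 passed the rule too. The chaperones with high signal were then at 0.25 (Hspa5), 0.41 (Hsp90b1), 0.35 (Pdia3) and 0.09 (Canx). With the mean of all probesets, which adds the one under the floor, Pdia4 was at 0.41 in wild type. Sdf2l1, Creld2, Sec61b and Hspa13 passed the rule under all 7 alternatives that kept it at 2-fold. For Sdf2l1, Creld2 and Hspa13 the changes of floor and the mean of all probesets left the value as it was. The further normalization, a shift of the arrays to a common median and the removal of the trend did change their values. Creld2 stayed close to the rule, at 1.02 after the shift.

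IL-4 was then compared with medium in Stat6-deficient macrophages. Ddit3 was the gene that rose, and 0 fell. Over all genes, 0.240% rose and 0.115% fell. The folding factors had a median difference of -0.11, with 2 of 15 above 0, and the 7 Atf4-type genes that could pass the rule had a median of 0.47, with 7 of 7 above 0. The median over all genes was -0.05.

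Ddit3 (Chop), a transcription factor of stress-induced cell death, had 4.47, 4.71, 3.84 and 5.08 in wild type in medium and with IL-4 and Stat6-deficient cells in medium and with IL-4. The rise in Stat6-deficient cells was 2.36-fold. Its Stat6-deficient array in medium was the lowest of the 4 and its Stat6-deficient array with IL-4 the highest, so low and high values both enter the difference. Atf4 itself had 4.87, 5.32, 4.78 and 5.26, which gave 0.46 in wild type and 0.47 in Stat6-deficient cells. Both arrays with IL-4 were above both arrays in medium, and neither difference passed the rule.

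The other Atf4-type genes except Trib3 (-0.08) also had differences above 0 in Stat6-deficient cells. These were 0.56 for Atf3, 0.52 for Sesn2, 0.42 for Asns and 0.35 for Chac1, and 0.12 for Ppp1r15a, the phosphatase subunit that restores translation, whose signals were 4.18, 3.91, 4.03 and 4.14. Trib3, a pseudokinase that binds Atf4, was at 2.69 and 2.63 in wild type and under the floor at 2.24 and 2.16 in Stat6-deficient cells. Across the 8 genes, 5 had a difference above 0 in both genotypes and 0 had one above 0 in wild type and below 0 in Stat6-deficient cells.

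Among folding factors that last pattern was the common one. Of 15 genes, 10 had a difference above 0 in wild type and below 0 in Stat6-deficient cells, or 9 with quantile normalization applied again and 8 with the trend removed, where Creld2 (0.03), Pdia4 (0.04) and Calr (0.04) were above 0 in Stat6-deficient cells. The genes above 0 in both were Sdf2l1, at 0.53 in Stat6-deficient cells, and Manf, at 0.08. The share of all genes above 0 in wild type and below 0 in Stat6-deficient cells is not given here. Over all genes, 41.1% were above 0 in wild type and 43.3% in Stat6-deficient cells, where the median was -0.05. Creld2, Pdia4, Pdia6 and Calr lay close to that median, so the count of signs rests partly on small values. Hyou1 (-0.26), Creld2 (-0.06), Pdia4 (-0.05), Pdia6 (-0.08) and Calr (-0.02) were near or below 0 in Stat6-deficient cells, and Dnajc3 (-0.51) and Dnajb11 (-0.34) had the lowest values of the 15. Sec61b, outside this group, had 0.88 in Stat6-deficient cells, short of the rule. The sensors Atf6 (-0.06), Ern1 (-0.01) and Eif2ak3 (-0.39) did not pass it either.

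**Figure D3:**
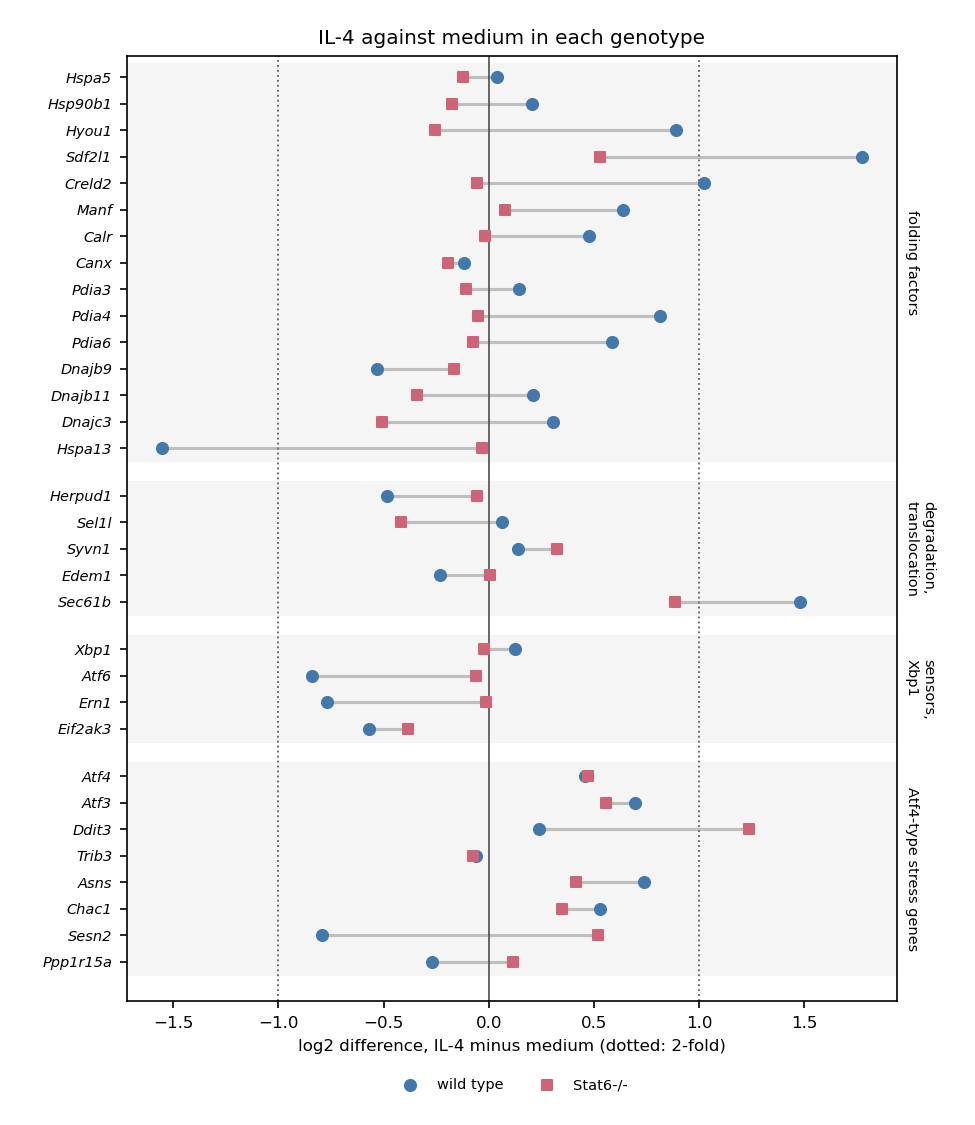
Difference of log2 signal, IL-4 minus medium (horizontal axis), for each of the 32 genes in wild type (blue circles) and Stat6-deficient cells (red squares); dotted lines mark the 2-fold rule. Most folding factors have the circle right of 0 and the square at or left of it, Hspa13 and the sensors have the circle left of 0, and 5 of 8 Atf4-type genes have both symbols right of 0.

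Next, the IL-4 difference of Stat6-deficient cells was subtracted from that of wild type. It was past the rule and positive for Sdf2l1 (1.25), Hyou1 (1.15) and Creld2 (1.08), and past it and negative for Hspa13 (-1.52) and Sesn2 (-1.31). Over all genes, 3.20% were past it in the positive and 5.77% in the negative direction. Ddit3, at -0.9986, was just short of it. The median was 0.56 for the folding factors, with 13 of 15 above 0, and -0.001 for the Atf4-type genes, with 4 of 8 above 0. It was -0.07 for all genes, and this comparison uses all 4 arrays.

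Folding factors and Atf4-type genes were set against each other in each comparison, as the median of the former minus that of the latter. It was -0.04 for IL-4 in wild type and -0.58 for IL-4 in Stat6-deficient cells. For the difference of the IL-4 effects it was 0.56. For IL-4 in wild type the groups thus had near-equal medians, with the spread of single genes in each group far wider than the gap. The value for IL-4 in wild type ran from -0.15 with a floor at the 75th percentile to 0.14 with signals raised to the floor. It was 0.093 with the intensity trend removed, so its sign was not stable. With the floor at the 75th percentile fewer Atf4-type genes could pass, so a smaller group was compared.

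Stat6-deficient and wild-type cells were also compared within each culture. These comparisons use the same arrays as the IL-4 comparisons and so are not independent of them. In medium, Hspa13 was lower in Stat6-deficient cells by 2.03-fold, and no other of the 32 genes passed the rule. Over all genes, 0.301% were higher and 1.15% were lower. Hspa13 was at -0.86 after quantile normalization applied again and at -0.85 with the intensity trend removed, both short of the rule.

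The folding factors had a median of -0.09 in medium against -0.11 over all genes, and the median became 0.02 with quantile normalization applied again and 0.06 with the trend removed. The 7 Atf4-type genes that could pass the rule had a median of -0.46, with 1 of 7 above 0. Atf3 (-0.66), Ddit3 (-0.62) and Asns (-0.52) were lower in Stat6-deficient cells in medium without passing the rule. The median of this group was -0.17 with signals raised to the floor and stayed below 0 under each of the alternatives.

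With IL-4, Sdf2l1 was 2.54-fold, Creld2 2.35-fold and Hyou1 2.12-fold lower in Stat6-deficient cells, and Sesn2 was 2.86-fold higher. Over all genes, 4.01% were higher and 4.83% were lower. The folding factors had a median of -0.67, with 2 of 15 above 0, while all genes had a median of -0.0001. Pdia4 (-0.94, or -0.57 with the mean of all probesets), Dnajb11 (-0.79), Calr (-0.76), Pdia6 (-0.75), Manf (-0.67) and Hsp90b1 (-0.51) followed in size. The exceptions above 0 were Dnajb9 (0.79) and Hspa13 (0.50).

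The sensors were on the other side. Ern1 was at 0.83, Atf6 at 0.79 and Eif2ak3 at 0.40 in Stat6-deficient cells with IL-4 relative to wild type with IL-4, and none passed the rule. The Atf4-type genes were spread on both sides, with a median of 0.00075 and 4 of 8 above 0. Asns was at -0.84, Atf3 at -0.80 and Atf4 at -0.07, and Ddit3 was at 0.37 beside Sesn2. Hyou1 was at -0.97, short of the rule, after quantile normalization applied again, and Sesn2 could not pass with a floor at the 75th percentile.

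**Figure D4:**
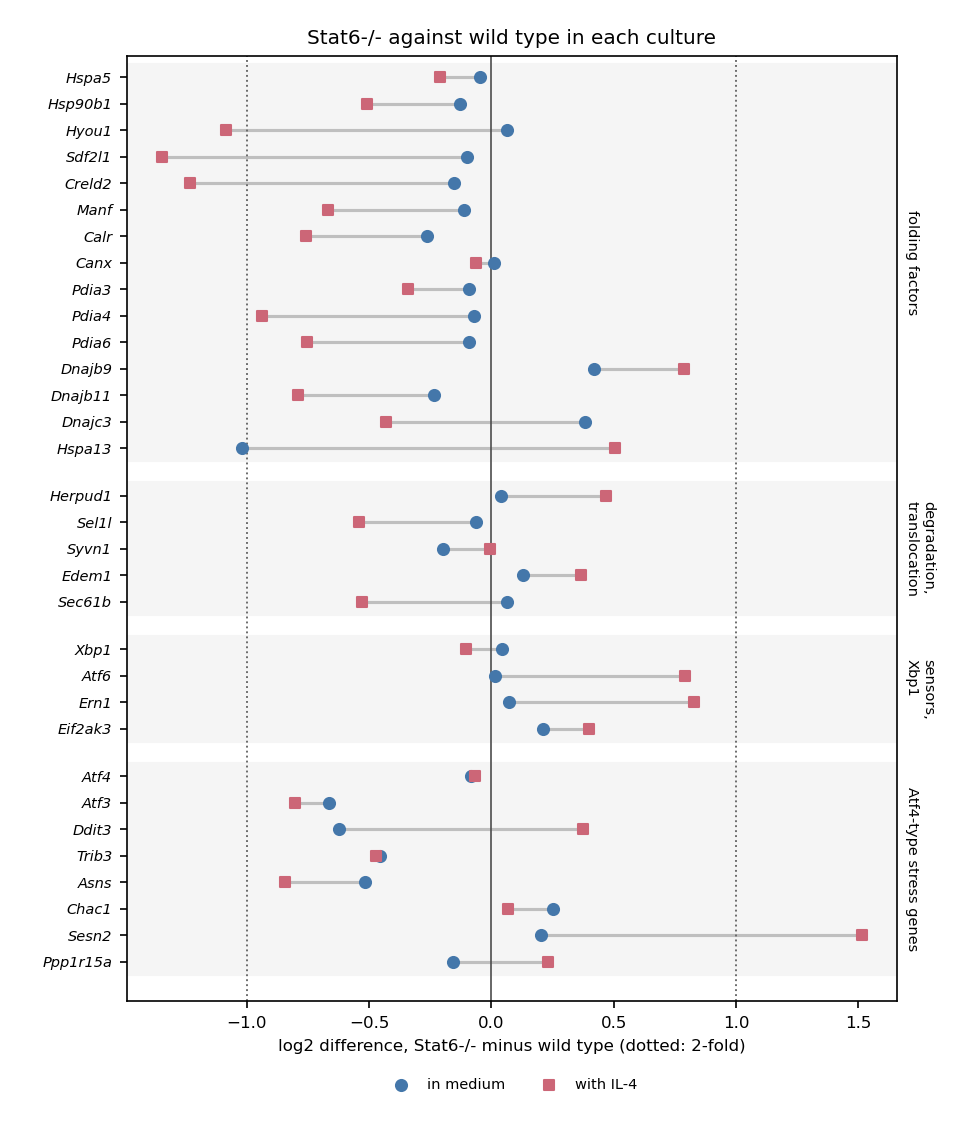
Difference of log2 signal, Stat6-deficient minus wild type (horizontal axis), for each of the 32 genes in medium (blue circles) and with IL-4 (red squares); dotted lines mark the 2-fold rule. The squares of most folding factors lie left of 0, with Hyou1, Sdf2l1 and Creld2 beyond the rule, while their circles lie between -0.26 (Calr) and 0.42 (Dnajb9), apart from Hspa13 beyond the rule.

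The expression differences were also read by promoter element. The 8 genes whose window holds the ER stress element had a median of 0.25 for IL-4 in wild type and -0.10 in Stat6-deficient cells, and Creld2 alone among them passed the rule. The 20 genes with a window and no match had medians of 0.13 and -0.0039, and Sdf2l1, Sec61b and Ddit3 were among them. So were Herpud1 and Dnajb11, which hold the related shorter form. Hyou1, Manf, Hspa13 and Atf6 had no window and are in neither group. For Stat6-deficient against wild-type cells with IL-4 the medians were -0.47 with and -0.09 without the element, and for the difference of the IL-4 effects 0.44 and 0.08. Hspa5 and Canx carry the element and were at 0.04 and -0.12 in wild type. Of the 8 genes with the element 7 are folding factors, and all 8 Atf4-type genes are without it. The split by element thus largely repeats the split by role. Among folding factors with the element, the difference of the IL-4 effects ran from 0.07 (Canx) to 1.08 (Creld2). Among those with a window and no match it ran from -0.37 (Dnajb9) to 1.25 (Sdf2l1). The part of the element was not tested.

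The wider pathway was read from 7 further lists, of whose 168 entries 158 were on the array. Of 27 other folding, glycosylation and redox enzymes of the ER that could pass the rule, 0 rose with IL-4 in wild type and 1 fell, the thioredoxin-related membrane protein Tmx1 (-1.02), with a median of 0.08. Of 21 other translocation genes 0 passed, with a median of -0.02. Of 21 other ER-associated degradation genes, Selenos (1.08), a membrane partner of the degradation complex, rose and 0 fell, with a median of -0.14. In Stat6-deficient cells none of these 3 lists had a gene past the rule for IL-4. Between genotypes with IL-4, Rpn1 (-1.33), a subunit of the oligosaccharyltransferase, was lower in Stat6-deficient cells, and the 28 folding, glycosylation and redox enzymes had a median of -0.19. In the difference of the IL-4 effects, Rpn1 (1.13) and Txndc5 (1.01), a disulfide isomerase, were past the rule, with a median of 0.19 and 71.4% of the 28 above 0.

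Other amino acid stress targets of Atf4 had 5 of 34 that rose and 2 that fell with IL-4 in wild type, with a median of 0.21. Over all genes, 2.96% rose and 6.78% fell. The 5 targets that rose were Slc7a11 (3.72), the cystine transporter, Slc1a5 (1.74), a glutamine transporter, Slc7a5 (1.27), a transporter of large neutral amino acids, Slc7a1 (1.15), an arginine transporter, and Psat1 (1.10), an enzyme of serine synthesis. Klhl24 (-1.65) and Cebpg (-1.03), a partner of Atf4 on DNA, fell. In Stat6-deficient cells 0 of 34 passed the rule, and the median was -0.14. Stat6-deficient cells with IL-4 had 8 of 35 lower and 1 higher than wild type with IL-4, with Slc7a11 at least 13.8-fold lower, Slc1a5 at -2.31, Psat1 at -1.39 and Klhl24 at 1.32. Over all genes, 4.83% were lower and 4.01% were higher. In medium Phgdh, the first enzyme of serine synthesis, was at least 1.34-fold lower in Stat6-deficient cells, where it was under the floor. In the difference of the IL-4 effects, Slc7a11 (3.86), Slc1a5 (2.07), Slc7a1 (1.55) and Vars (1.16), a valine tRNA ligase, were past the rule upward and Phgdh (-1.15), Nupr1 (-1.08) and Klhl24 (-1.07) downward, with a median of 0.33 over 36 genes.

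Of 16 genes of eIF2 kinases, phosphatase and initiation factors, the interferon-induced kinase Eif2ak2 (-1.47) fell in wild type with IL-4 and 0 rose. Of 8 genes of site proteases and related membrane transcription factors, Creb3l1 rose, from 1.96 under the floor to 3.31, and Map3k5 (Ask1), a kinase downstream of Ern1, fell by 2.14. In Stat6-deficient cells 0 genes of either list passed the rule for IL-4. With IL-4, Map3k5 was higher in Stat6-deficient than in wild-type cells (1.93) and Creb3l1 lower, by at least 1.72-fold. The difference of the IL-4 effects was past the rule for Eif2ak2 (-1.16), Map3k5 (-1.74) and Creb3l1 (1.30).

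**Figure D5:**
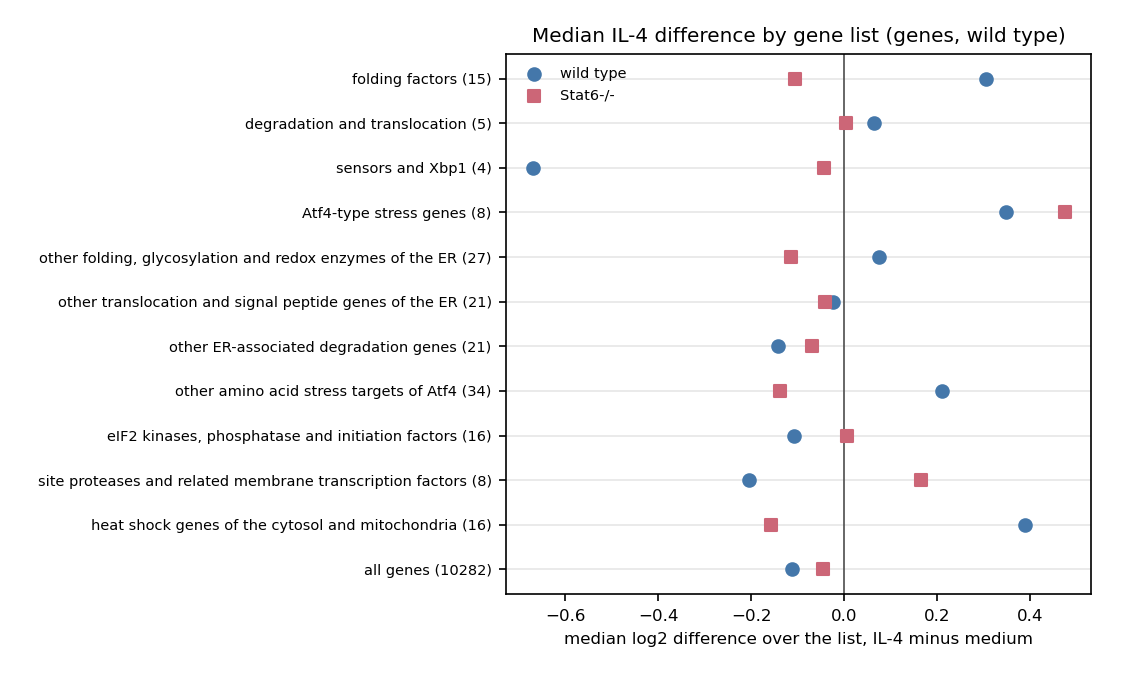
Median difference of log2 signal, IL-4 minus medium (horizontal axis), over each gene list in wild type (blue circles) and Stat6-deficient cells (red squares), with the number of genes that could pass the rule in wild type in brackets. Folding factors lie at 0.30 and -0.11, Atf4-type genes at 0.35 and 0.47, the sensors with Xbp1 at -0.67 and -0.04, and all genes at -0.11 and -0.05.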

How the data were processed

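The deposited table holds log2 signals of 4 Affymetrix whole-transcript arrays, as the authors computed them per probeset. Per the submitters' processing notes, the values came from RMA in Affymetrix Expression Console; the version and genome build were not given in the sources used here. Of 35557 probesets, 21789 had 1 symbol in the platform annotation, 1621 several and 12147 none in the annotation used here.

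Differences of log2 signals were computed in Python 3.11.15 (pandas 2.3.3, statsmodels 0.14.6 for lowess, fraction 0.3) and checked on simulated data. No test was possible. The 8 alternatives were a further quantile normalization, a shift of each array to a common median, subtraction of the lowess trend on signal, no floor, a floor at the 75th percentile, signals raised to the floor, the mean of all probesets per gene, and a 1.5-fold rule. Of the 32 genes, Dnajc3, Pdia4 and Sec61b had several probesets. Both probesets of Dnajc3 held identical values, and the second of Pdia4 was under the floor. The text names all 32 genes, Stat6 and Arg1, and the plasma cell markers that reach the floor, while markers of other cell types are only counted. It also names up to 4 genes past the rule (the largest) from each other list and comparison. Jchain, Mzb1, Tnfrsf17, Cebpg and Nupr1, Slc7a1 and Psat1 for IL-4 in wild type, and Phgdh and Klhl24 for the difference of IL-4 effects fall outside this rule and were named after their values were seen. Protein sequences were not used here. The genes and lists were chosen with earlier results of these data known.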

Additional observations from a re-analysis of the deposited data

Results flagged for a closer look

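In 3 of the 32 genes the difference between the IL-4 effects passed the 2-fold rule and the effect had opposite directions in the 2 genotypes. It was 1.15 for Hyou1 (0.89 in wild type, -0.26 in Stat6-deficient cells), 1.08 for Creld2 (1.02 and -0.06) and -1.31 for Sesn2 (-0.79 and 0.52). Over all genes, 565 of 10798 (5.23%) met both conditions, against 3 of 32 here. With the intensity trend removed, Creld2 was at 0.03 in Stat6-deficient cells, so that both genotypes were then above 0. Sesn2 was at 2.71 in wild type with IL-4, close to the floor of 2.52. With 1 array per group, none of these differences was tested.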

How the results depend on the processing

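No paired analysis was possible because each group was 1 array, and for the same reason no array could be left out. Among the 32 genes, 0 differences past the rule changed direction under the 8 alternatives. No floor, the floor at the 75th percentile and the 1.5-fold rule kept the same differences, so no direction could change under them. Among the differences past the rule, signals raised to the floor changed no value. The mean of all probesets changed only that of Sec61b. For Stat6-deficient against wild type in medium, the count of genes past the rule went from 1 to 0 with quantile normalization applied again and to 0 with the intensity trend removed. The median of folding factors minus that of Atf4-type genes was -0.04 for IL-4 in wild type and became 0.093 with the trend removed. It was -0.15 once the floor was the 75th percentile and fewer Atf4-type genes could pass, and 0.14 with signals raised to the floor. For Stat6-deficient against wild type in medium it was 0.36 and became 0.48 with the trend removed, 0.21 with no floor and 0.075 with signals raised to the floor, and for the difference of the IL-4 effects it went from 0.56 to 0.67 with the trend removed. Over all genes, the floor at the 75th percentile gave 20 in place of 37 genes past the rule for IL-4 in Stat6-deficient cells and 93 in place of 149 between genotypes in medium, where fewer genes could pass. The 1.5-fold rule gave 13, 2, 3, 14 and 12 of the 32 genes, in place of 4, 1, 1, 4 and 5, for IL-4 in wild type, IL-4 in Stat6-deficient cells, the genotypes in medium, the genotypes with IL-4 and the difference of IL-4 effects, and 2907, 596, 1114, 2398 and 2830 over all genes. The share of increases among all genes past the rule was 20.8% between genotypes in medium and 37.2% with quantile normalization applied again, 67.6% for IL-4 in Stat6-deficient cells and 78.0% with the trend removed, and 35.7% for the difference of effects and 47.7% with quantile normalization applied again. The cause of these changes was not tested. Trib3 and Chac1, near the floor, have little signal over background. Sesn2 was at 2.71 in wild type with IL-4, close to the floor of 2.52, and that value enters its differences past the rule.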

Other observations

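Heat shock genes of the cytosol and mitochondria, which serve folding outside the ER, had a median of 0.39 for IL-4 in wild type and -0.16 in Stat6-deficient cells over 16 genes at or above the floor. The folding factors of the ER had medians of 0.30 and -0.11, so medians on these sides of 0 were not particular to them. In wild type 0 of the heat shock genes rose, and Dnajb4 (-1.18), a J-domain co-chaperone, fell. In Stat6-deficient cells with IL-4, 4 of 16 were lower than in wild type with IL-4 and 0 were higher. Over all genes, 4.83% were lower and 4.01% were higher. The 4 heat shock genes were Hsph1 (-2.02), an exchange factor of cytosolic Hsp70, Hspd1 (-1.34), the mitochondrial chaperonin, Hspa9 (-1.19), the mitochondrial Hsp70, and Stip1 (-1.12), which links Hsp70 to Hsp90. In medium the median between genotypes was -0.48 over the same number of genes, whereas it was -0.09 for the folding factors of the ER. In the difference of the IL-4 effects, Hsph1 (1.38) and Hspa1a (1.35), an inducible Hsp70, were past the rule upward and 0 were past it downward.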
